A study of Homo sapiens with 2 samples.

Results

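The replication-dependent histone genes encode the bulk of the nucleosome proteins and lie in 4 gene clusters, known by their older names as HIST1, HIST2, HIST3 and HIST4. Their probe sets were picked by gene name, under a rule made with earlier results of these data known. Any probe set whose platform symbol belonged to the clusters' H1, H2A, H2B, H3 or H4 genes was a member. This gave 78 of the 33297 probe sets of the array, which name 71 of these genes, pseudogenes among them, and H2BC12L, which has such a name but lies elsewhere. Of the probe sets, 58 named a single gene each, for 58 different genes, and 20 named several genes and are reported apart, so that 13 genes were read only together with others. Expression was measured in H1299, an established human lung cancer line without p53 of its own, in 2 groups of 1 array each: cells with p53 and cells of a negative control. The labels do not say how or for how long p53 was supplied, nor what the negative control received. With 1 array per group there was no replicate, so the differences below come without p-values or errors between replicates and describe these 2 arrays.

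In dividing cells these genes are transcribed mainly in S phase, when new DNA has to be packed. Most of their transcripts end in a stem-loop in place of a poly(A) tail, and the stem-loop binding protein SLBP carries them through processing and translation. Loss of DNA synthesis lowers them. Some members, best known among the H2B genes (H2BC21, H2BC12, H2BC5, H2BC4), can also give polyadenylated transcripts, which non-dividing cells can make. Histones H3 and H4 form the tetramer at the centre of the nucleosome, H2A and H2B flank it as dimers, and the H1 linker histones bind the DNA where it enters and leaves.

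The values are log2 intensities made with robust multi-array average (RMA) by the authors, with a median of 7.38 for each array. CDKN1A, the p21 gene and a standard p53 target, read 12.66 with p53 against 9.18 in the control. The keratin genes KRT8 (12.84 with p53, 12.52 in the control) and KRT18 (12.47 and 12.78 on 1 of its 2 probe sets) and the mesenchymal gene VIM (12.92 and 13.07) were bright, whereas KRT19, EPCAM, NKX2-1, SFTPB and the blood and endothelial markers PTPRC, CD3E, PECAM1 and VWF all lay below the array median. In bulk RNA, fewer cells in S phase and less histone RNA per cell cannot be told apart.

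Most histone probe sets had a negative difference, with the p53 array below the control array. Of the 58 single-symbol members, 23 were at least 2-fold lower (39.7%) and 1 was at least 2-fold higher (1.72%). Over all 19460 single-symbol probe sets, 3.65% were at least 2-fold lower and 5.13% at least 2-fold higher. The median difference of the members, log2 with p53 minus log2 in the control, was -0.33, against 0.00 over all single-symbol probe sets. Differences of any size were negative in 40 members, positive in 9 and exactly 0 in 9. Over all single-symbol probe sets 37.8% were negative, 26.8% positive and 35.4% exactly 0. At a limit of 3-fold, 12 members were lower and 0 were higher. The share over all probe sets was not counted at that limit, so these counts have no background.

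The mean of both arrays was at or above the array median of 7.38 in 40 members, of which 22 were at least 2-fold lower and 1 was higher, where the background was 5.63% lower and 7.6% higher. This split uses the control value that also sets the difference: 6 of the 40 were below 7.38 with p53 and passed through the control array alone, among them H2AC4, H2BC13 and H2AC16, which count among the 22. The count over the 40 is therefore a description and no support for the count over all 58. Of the 18 dimmer members, 1 was at least 2-fold lower, 0 were higher, and 8 had equal values in both arrays. The background among dim probe sets was 0.693% lower, 1.44% higher and 65.8% equal. The 1 dim member that was lower was H2AC14, at 6.11 with p53 and 7.78 in the control. Across the 58 members, Pearson's r between mean intensity and difference was -0.36 and Spearman's rho -0.42. These points come from the same 2 arrays, the mean holds the values that make the difference, and near-identical genes share sequence.

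**Figure D1:**
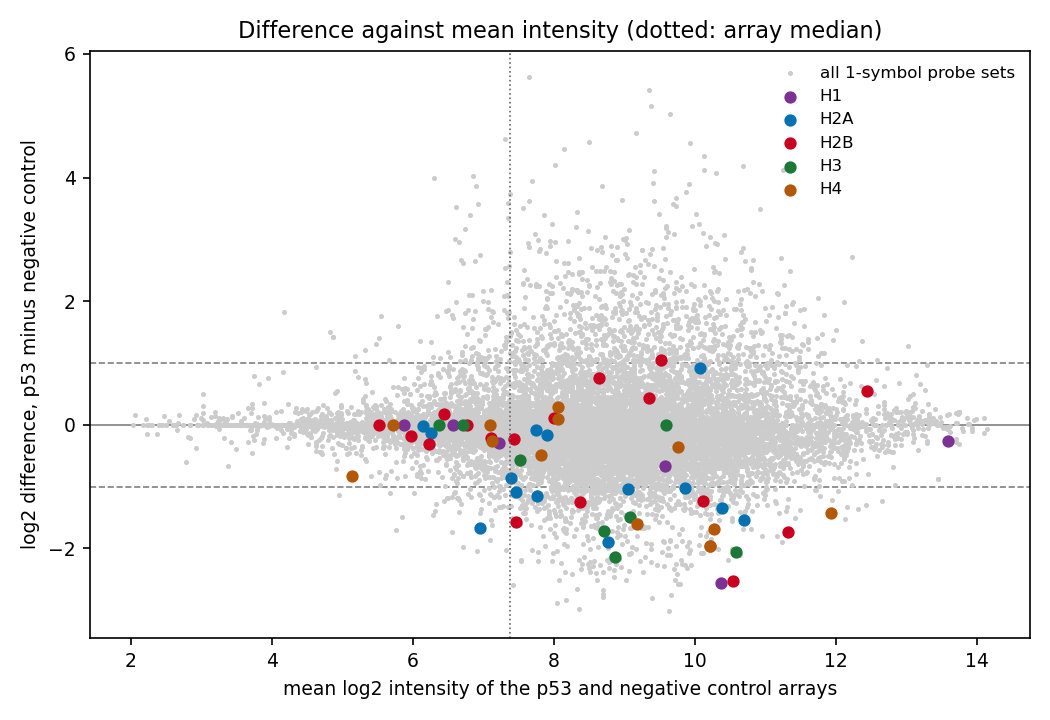
Difference (log2 with p53 minus log2 in the negative control) against the mean log2 intensity of both arrays, for all 19460 single-symbol probe sets (grey) and the 58 histone members, coloured by class. Right of the dotted line at 7.38, 22 of 40 members lie at or below the lower dashed 2-fold line. Left of it 1 of 18 does.

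Of 8 H3 members, 4 reached 2-fold lower and 0 reached 2-fold higher, with a median difference of -1.03. H3C12 had 7.79 with p53 and 9.93 in the control, 4.39-fold lower. H3C2 had 9.55 with p53 and 11.60 in the control, 4.15-fold lower. H3C8 had 7.84 with p53 and 9.56 in the control, 3.30-fold lower. All of these encode the replication-coupled H3.1 protein, as does H3C7, which was at -1.49. H3C1 was at -0.56. The other 3, H3C3, H3C10 and H3C11, had exactly the same value in both arrays. For H3C3 (6.37) and H3C11 (6.70) that value was below the array median, and for H3C10 (9.58) it was above. Such equal values were held by 15.1% of all single-symbol probe sets with a mean at or above the array median.

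Of 13 H4 members, which all belong to the family of genes for the most conserved core histone, 5 reached 2-fold lower and 0 higher, with a median difference of -0.49. H4C14 and H4C15, a pair of HIST2 genes, had 9.24 with p53 and 11.19 in the control, 3.88-fold lower. Their probe sets held identical values in both arrays, so the pair is 1 measurement, and with it counted once the members number 57, of which 22 were lower. H4C5 had 9.43 with p53 and 11.11 in the control, 3.22-fold lower. H4C2 (-1.61) and H4C3 (-1.43) were the other lower members. The values of H4C13, H4C4, H4C8 and H4C1 were -0.83, -0.49, -0.36 and -0.26, H4C6 and H4C7 were equal in both arrays, and H4C16 (0.09) and H4C9 (0.29) were slightly positive. H4C16 is the single member of HIST4.

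Of 14 H2A members, 8 reached 2-fold lower and 0 reached 2-fold higher. Their median was -1.03. H2AC15 had 7.82 with p53 and 9.72 in the control, 3.72-fold lower. H2AC14 (-1.67), H2AC21 (-1.54), H2AC20 (-1.35) and H2AC16 (-1.16) followed. Just past the limit, H2AC4 had 6.92 with p53 and 8.0005 in the control (-1.08). H2AC13 had 8.53 with p53 and 9.56 in the control (-1.04). H2AC6 had 9.35 with p53 and 10.38 in the control (-1.03). Short of it, H2AC12 had 6.96 with p53 and 7.82 in the control (-0.86). H2AC8, H2AC25, H2AC17 and H2AC1 lay between -0.17 and -0.02, and H2AC11 was at 0.92. H2AC11, with 10.52 in the p53 array and 9.60 in the control array, was the H2A member with a positive difference.

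The H2B class held negative and positive differences. Of its 17 members, 5 were at least 2-fold lower (29.4%) and 1 was at least 2-fold higher (5.88%). Over all single-symbol probe sets the shares were 3.65% and 5.13%, so the higher share was near that of the array. The H2B median was -0.17, with 9 negative, 6 positive and 2 equal values, where 37.8% of all single-symbol probe sets were negative and 26.8% positive. H2BC14 had 9.27 with p53 and 11.80 in the control, 5.79-fold lower. H2BC9 had 10.45 with p53 and 12.19 in the control, 3.33-fold lower. H2BC13 (-1.57), H2BC4 (-1.25) and H2BC7 (-1.24) were the other lower members. On the other side H2BC11 had 10.04 with p53 and 8.99 in the control, 2.06-fold higher. H2BC8 had 9.01 with p53 and 8.26 in the control, 1.69-fold higher. H2BC12 had 12.71 with p53 and 12.17 in the control, 1.46-fold higher. H2BC21 had 9.57 with p53 and 9.13 in the control, 1.35-fold higher. Of the H2B genes named above for polyadenylated transcripts, H2BC21 (0.44), H2BC12 (0.54) and H2BC5 (0.11) were positive on their own probe sets, and H2BC4 (-1.25) was at least 2-fold lower. On shared probe sets the sign differed: 1 that names H2BC21 with pseudogenes was at -0.62, and the 1 that names H2BC12 and H2BC5 with H2BC12L and H2BC17 at -0.13. Transcript ends were not measured. The remaining positive member was H2BC26 (0.18). H2BC17, H2BC10, H2BC6 and H2BC3 lay between -0.31 and -0.17. The testis gene H2BC1 and the pseudogene H2BC19P were equal in both arrays.

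Of 6 H1 linker histone members, 1 reached 2-fold lower and 0 higher, and their median was -0.28. H1-5 had 9.09 with p53 and 11.65 in the control, 5.91-fold lower and the lowest difference among all 58 members. H1-2 had 9.24 with p53 and 9.91 in the control (-0.67). H1-4 had 13.45 and 13.72 (-0.26) and H1-3 had 7.07 and 7.36 (-0.29), in the p53 and the control array. H1-1 (6.56) and the testis gene H1-6 (5.87) were equal in both arrays and below the array median. Thus H1-5 differed from the other H1 members by at least 1.89 on the log2 scale, with no replicate to set this against.

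**Figure D2:**
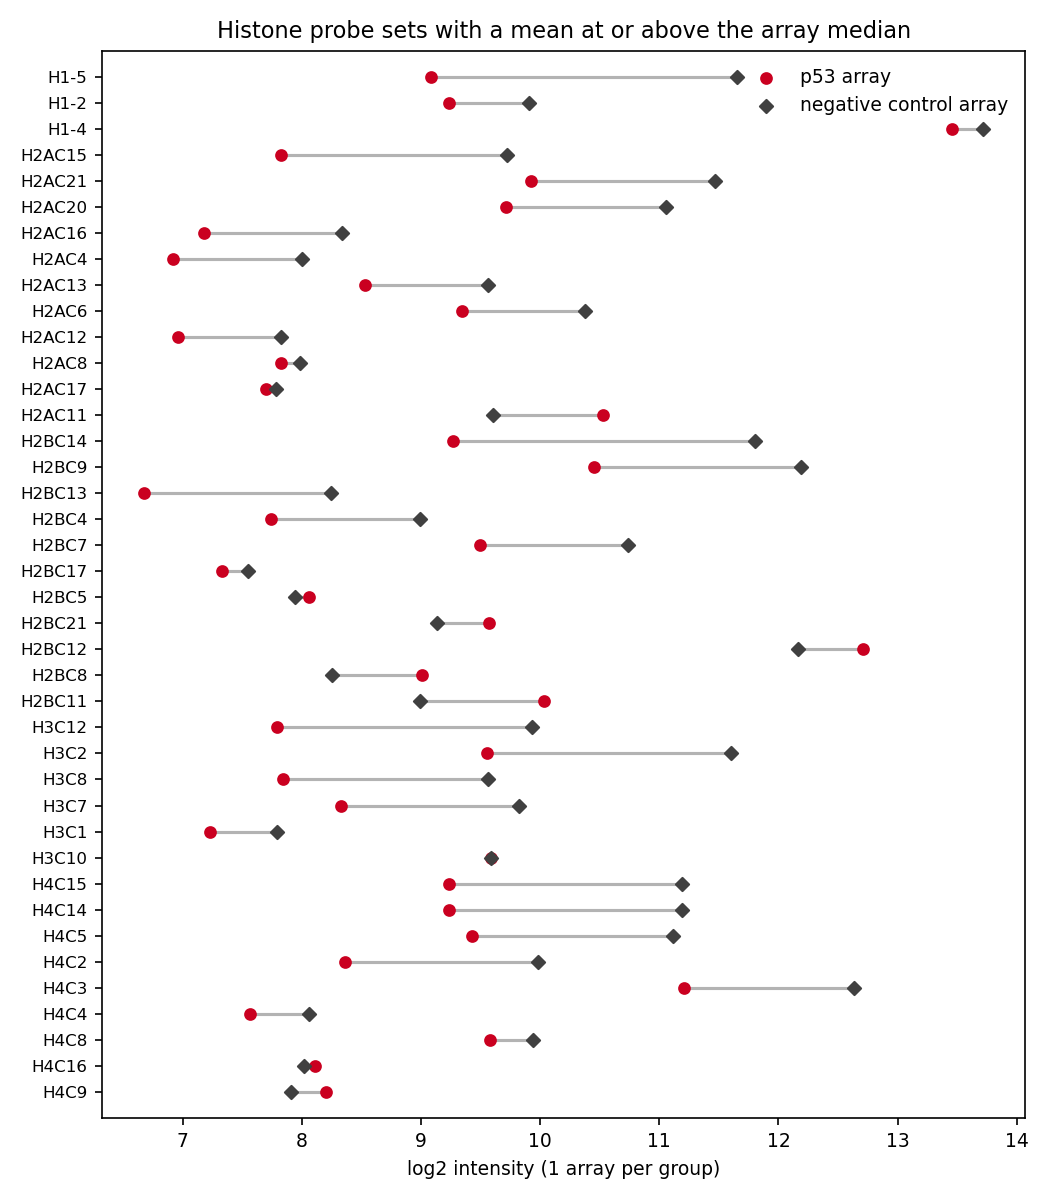
Log2 intensity in the p53 array (circles) and the negative control array (diamonds) for the 40 single-symbol histone members with a mean at or above the array median, grouped by class from H1 at the top to H4 at the bottom. The circle lies left of the diamond in 31 genes, right of it in 8 and on it in H3C10.

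**Figure D3:**
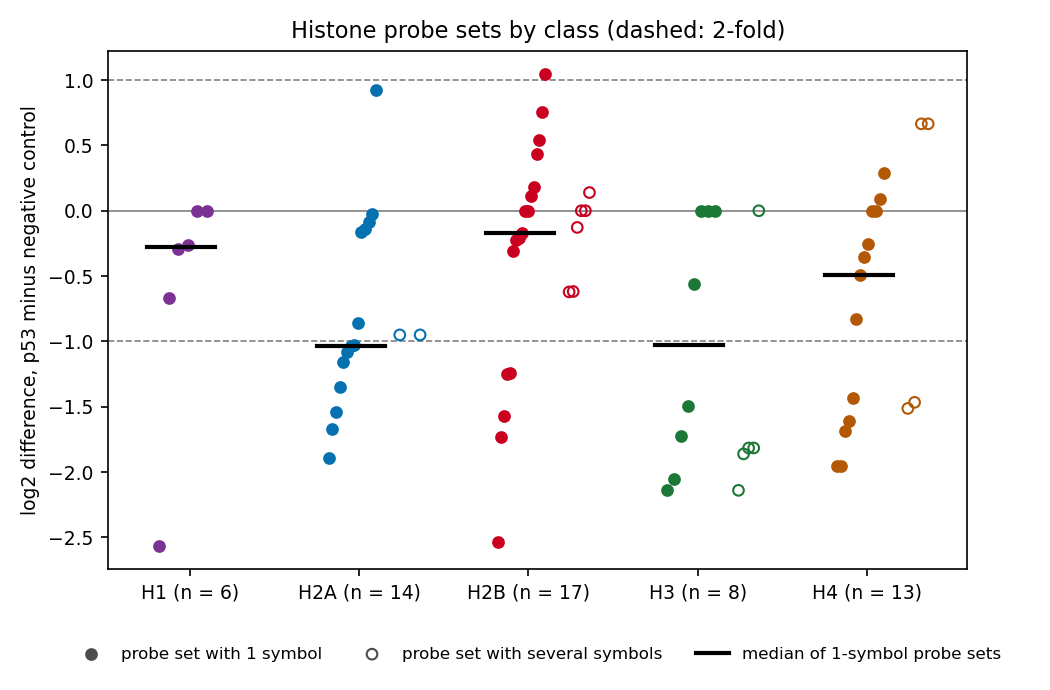
Difference (log2 with p53 minus log2 in the negative control) of each histone probe set, by class. Filled points are the 58 single-symbol members, with black bars at their medians (H1 -0.28, H2A -1.03, H2B -0.17, H3 -1.03, H4 -0.49), and open points are the several-symbol probe sets of 1 class. The H2B points run from -2.53 to 1.04.

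The 20 probe sets with several symbols were counted apart. Of these, 8 reached 2-fold lower (40.0%) and 0 higher, and their median was -0.79. Among all 1754 several-symbol probe sets, 3.14% were lower and 4.05% higher. The 4 that name H3C13, H3C14 and H3C15, the HIST2 genes of the H3.2 protein, lay between -2.14 and -1.82. One of these read 10.77 with p53 and 12.63 in the control, another 10.57 with p53 and 12.71 in the control, and the remaining 2 held identical values, 9.72 with p53 and 11.53 in the control. The 2 probe sets of H4C11 and H4C12 were at -1.51 and -1.47, and that of H3C4 and H2AC7 at -1.92. The 2 probe sets for H2AC18 to H2AC21 held identical values, 9.9985 with p53 and 10.9487 in the control (-0.95), just short of 2-fold. With identical probe sets counted once, 7 of 17 were lower. The probe set of H2BC12, H2BC12L, H2BC17 and H2BC5 was at -0.13, and those of H3C6 with H3C11 and of H2BC18 with the pseudogene FCGR1BP were equal in both arrays.

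In some genes the probe sets differed in direction. H4C14 and H4C15 were at -1.95 on their single-symbol probe sets, but 2 further probe sets that name both genes had 9.37 with p53 and 8.71 in the control, a difference of 0.67. H2BC21 was at 0.44 on its own probe set, at -0.62 on the one it shares with the pseudogenes H2BC19P and H2BC20P, and at 0.00 on the one it shares with H2BC18 and H2BP1. H3C10 was equal in both arrays on its own probe set, and at -1.04 on the one it shares with H2AC13. H2AC15 was at -1.90 alone, and at -0.40 on the probe set it shares with H2BC15. H2BC18 shares 2 probe sets with the pseudogene H2BP1, of which 1 had 10.22 with p53 and 10.84 in the control (-0.62) and the other 6.75 with p53 and 6.61 in the control (0.14). Over 242 genes of the array, the spread between the differences of 2 probe sets was 0.14 (standard deviation from the median absolute deviation). Only probe sets with a mean at or above the array median entered, and pairs with the same difference were left out. Probe sets equal in both arrays were also left out, so this spread does not cover the equal values given above. Histone genes of a class are near-identical in sequence, so a probe set can read other members too, and a value is that of the probe set more surely than that of the gene.

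The differences varied along the HIST1 cluster. Gene order was taken from the RefSeq table of GRCh38.p14, and a break was set wherever neighbouring members lay more than 100000 bases apart, which gave 4 blocks of the 49 HIST1 members. The outer block, H2AC1 and H2BC1, both testis genes, was dim and near 0. In the block from H1-1 to H4C8, 11 of 29 members reached 2-fold lower and 0 higher (median -0.36). In the block from H2BC13 to H2BC17, 8 of 13 reached 2-fold lower and 0 higher (median -1.16). H1-5, H2BC14 and H3C12 lie in it.

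The 5 members from H2BC11 to H2AC12 were mostly positive, a run noticed only once the values were put in gene order. H2BC11 (1.04), H2AC11 (0.92), H2BC12 (0.54) and H4C9 (0.29) were all positive, and H2AC12 was at -0.86. The median of this block was 0.54, against -0.53 over the other 44 HIST1 members, of which 19 were lower, 0 higher and 2 positive. Those 2 were H2BC5 and H2BC8. In HIST2, 4 of 6 single-symbol members were lower (median -1.44), counting the identical H4C14 and H4C15 as 2. The HIST3 members H2AC25 (-0.14) and H2BC26 (0.18) were dim. H3-4, the testis H3 gene of HIST3, whose symbol is outside the naming rule, had 6.91 with p53 and 6.92 in the control.

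**Figure D4:**
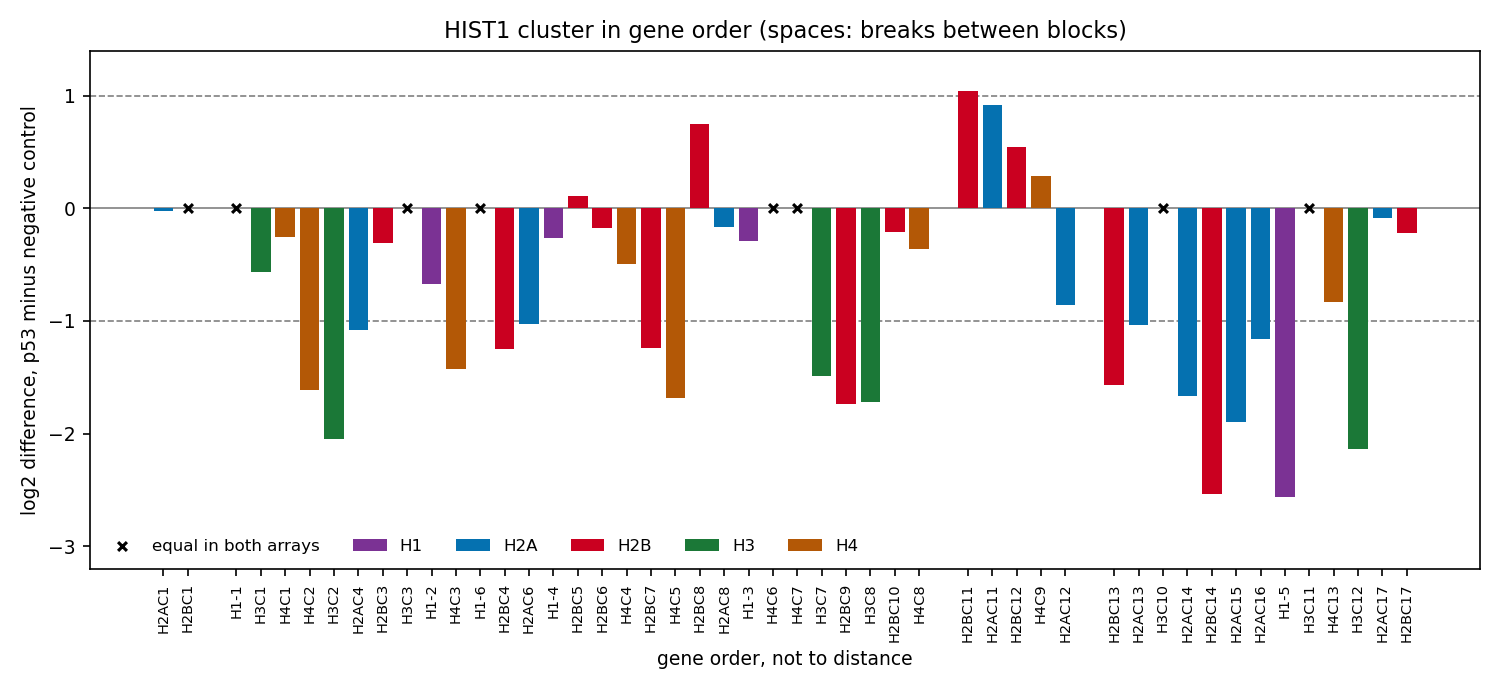
Difference (log2 with p53 minus log2 in the negative control) of the 49 HIST1 members in gene order, coloured by class, with spaces between the 4 blocks and crosses at equal values. The bars of H2BC11, H2AC11, H2BC12 and H4C9 stand side by side above 0, and the block to their right runs down to -2.56 at H1-5.

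Many H2A and H2B genes lie head to head and share 1 stretch of promoter. Pairs were found as genes on opposite strands whose promoter windows, 250 bases before to 50 after the start in RefSeq's table, overlap. Of 12 such gene pairings, which include H2BC7 with the H3 gene H3C4, 9 had a single-symbol probe set for both genes. Only 52 of the 58 single-symbol members had a window, so pairs of the others could not be found. H2AC12 (-0.86) in the block of H2BC12 was among those without a window. In 5 of the 9 measured pairs the genes lay on the same side of 0, in 3 on opposite sides, and in 1 a gene was at 0.00. How often unpaired members lay on the same side was not counted, and 40 of the 58 members were negative. H2AC14 (-1.67) and H2BC14 (-2.53) were both at least 2-fold lower, as were H2AC13 (-1.04) and H2BC13 (-1.57), and H2AC6 (-1.03) and H2BC4 (-1.25). H2AC11 (0.92) and H2BC11 (1.04) were both positive. H2AC17 (-0.09) and H2BC17 (-0.22), the other pair on the same side, were both slightly negative. H2AC20 (-1.35) and H2BC21 (0.44) lay 1.78 apart on their own probe sets, but shared probe sets of H2BC21 were at -0.62 and 0.00 and those of H2AC20 at -0.95, so that their lying on opposite sides depends on the probe set. H2AC8 (-0.17) and H2BC8 (0.75) also lay on opposite sides, 0.92 apart. In the last pair on opposite sides, H2AC25 and H2BC26, both genes were dim.

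**Figure D5:**
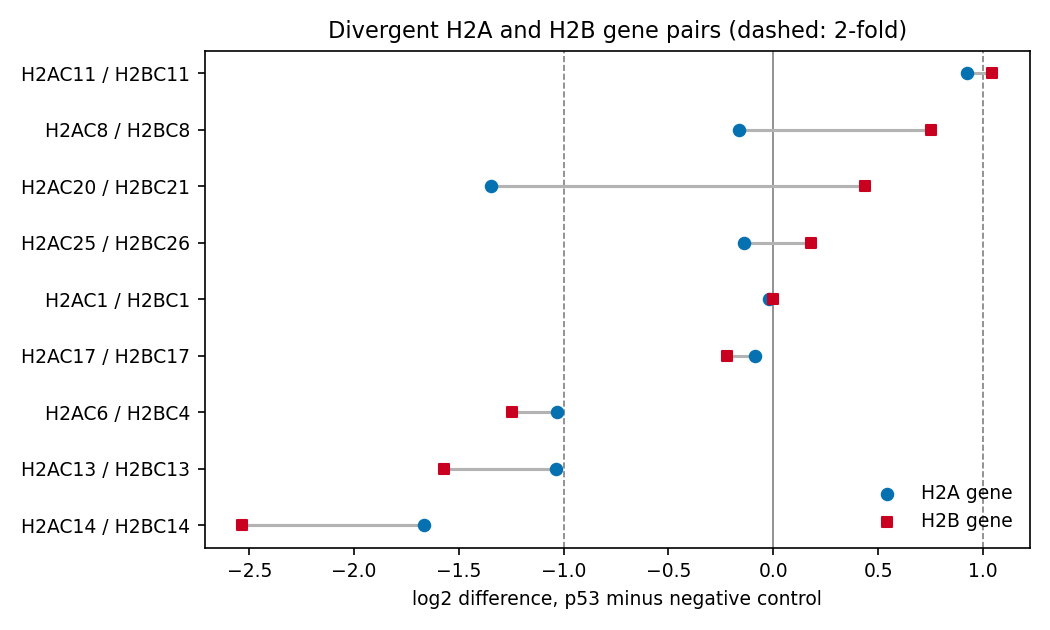
Difference (log2 with p53 minus log2 in the negative control) of the H2A gene (circles) and the H2B gene (squares) of 9 head-to-head pairs. In the lower 3 pairs both genes are past the left 2-fold line, in H2AC11 and H2BC11 both are above 0.9, and H2AC20 and H2BC21 lie 1.78 apart on their own probe sets.

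The promoter windows below were picked with the values known: H1-5, H2BC14, H3C2 and H4C5 as lower members of 4 classes, and H2BC11 and H2BC21 as H2B genes with a positive value on their own probe sets, the first paired with a positive and the second with a lower H2A gene. Each is 300 bases, 5′ to 3′, from RefSeq (GRCh38.p14). The capitals mark exact matches on either strand to 4 motifs known from histone promoters: the TATA box (TATAAA), the CCAAT box (CCAAT), the octamer of H2B promoters (ATTTGCAT) and the AC box of H1 promoters (AAACACA). Matches of the TATA box on opposite strands can overlap each other, as in TTTATAAA.
H1-5, chr6:27867539-27867838, minus strand: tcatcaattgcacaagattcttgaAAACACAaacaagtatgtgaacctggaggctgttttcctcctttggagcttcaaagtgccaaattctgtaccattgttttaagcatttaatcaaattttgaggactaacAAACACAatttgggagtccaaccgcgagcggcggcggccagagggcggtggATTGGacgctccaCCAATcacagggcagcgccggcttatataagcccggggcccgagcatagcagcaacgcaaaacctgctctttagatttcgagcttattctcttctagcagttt
H2BC14, chr6:27814772-27815071, plus strand: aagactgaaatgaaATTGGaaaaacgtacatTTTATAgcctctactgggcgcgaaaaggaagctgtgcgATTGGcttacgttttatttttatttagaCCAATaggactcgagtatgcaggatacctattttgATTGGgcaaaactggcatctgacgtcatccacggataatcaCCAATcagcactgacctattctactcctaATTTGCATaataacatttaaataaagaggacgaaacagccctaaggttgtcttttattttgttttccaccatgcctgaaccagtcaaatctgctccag
H2BC11, chr6:27132746-27133045, minus strand: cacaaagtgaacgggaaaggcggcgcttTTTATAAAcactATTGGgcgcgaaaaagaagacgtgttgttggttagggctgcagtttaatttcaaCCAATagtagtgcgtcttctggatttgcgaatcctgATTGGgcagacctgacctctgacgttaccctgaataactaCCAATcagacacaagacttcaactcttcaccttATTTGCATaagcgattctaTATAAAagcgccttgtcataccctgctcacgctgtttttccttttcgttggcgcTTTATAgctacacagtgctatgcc
H2BC21, chr1:149886633-149886932, minus strand: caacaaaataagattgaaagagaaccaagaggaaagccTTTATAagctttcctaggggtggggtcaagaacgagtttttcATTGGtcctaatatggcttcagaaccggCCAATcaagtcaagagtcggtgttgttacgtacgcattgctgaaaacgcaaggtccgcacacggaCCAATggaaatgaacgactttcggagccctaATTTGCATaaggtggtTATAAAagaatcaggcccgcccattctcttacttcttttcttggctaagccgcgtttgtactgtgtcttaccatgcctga
H3C2, chr6:26032050-26032349, minus strand: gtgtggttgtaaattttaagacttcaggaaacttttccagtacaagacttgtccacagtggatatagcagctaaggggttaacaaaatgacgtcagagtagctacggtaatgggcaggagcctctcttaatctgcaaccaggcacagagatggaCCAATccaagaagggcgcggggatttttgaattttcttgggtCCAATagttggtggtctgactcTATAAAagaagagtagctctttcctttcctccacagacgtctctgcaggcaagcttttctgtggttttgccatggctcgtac
H4C5, chr6:26204360-26204659, plus strand: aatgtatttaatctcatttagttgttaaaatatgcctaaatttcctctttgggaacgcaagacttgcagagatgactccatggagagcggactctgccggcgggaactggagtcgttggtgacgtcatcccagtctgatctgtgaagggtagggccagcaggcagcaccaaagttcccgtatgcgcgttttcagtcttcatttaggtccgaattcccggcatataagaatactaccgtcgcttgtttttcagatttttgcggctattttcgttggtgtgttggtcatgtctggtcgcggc

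The classes differed in these letters. The octamer was in 14 of 18 H2B windows and 11 of 16 H2A windows, which overlap in the pairs, against 1.80% of 27305 genes with a window in the table. The AC box was in all 6 H1 windows, against 5.76% of all genes. The CCAAT box was in all 6 H1, 16 H2A, 18 H2B and 11 H3 windows but in 3 of 13 H4 windows, against 35.7% of all genes. The letters of the TATA box were in 42 of all 64 histone windows, against 11.95% of all genes. A match was counted anywhere in the window on either strand, so it need not be a working element. H2BC14, H2BC11 and H2BC21, at -2.53, 1.04 and 0.44, each held 1 octamer and between 3 and 5 CCAAT matches. Among the 13 H2B members with an octamer, the differences ran from -2.53 to 1.04, with 4 lower and 1 higher. Among the 3 without one, they ran from -1.57 to 0.18, with 1 lower. Of the 6 H1 windows with an AC box, that of H1-5 belonged to the 1 lower member. The bearing of the octamer on the H2B differences was not tested, and only 3 H2B members lacked it. H4C5 held none of the 4 motifs as spelled here, which says nothing of the factors that may bind there.

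S phase genes and genes of histone supply, all outside the clusters, were set beside the members. These 4 lists were chosen with earlier results of these data known. All their measured genes had a mean at or above the array median. Of all single-symbol probe sets that bright, 5.63% were at least 2-fold lower and 7.6% higher. Of 18 S phase genes, 13 reached 2-fold lower and 0 higher (median -1.67). Among them the replication licensing gene CDC6 was at -2.98, the cyclin gene CCNE2 at -2.67, the primase gene PRIM1 at -2.51 and the helicase gene MCM3 at -2.33. PCNA, the polymerase clamp, and RRM1, the large subunit of ribonucleotide reductase, were positive, at 0.71 and 0.67. Of 9 histone chaperone genes of DNA synthesis, 4 reached 2-fold lower and 0 higher (median -0.70): ASF1B, an H3-H4 chaperone, at -2.06, the helicase subunit and H3-H4 binder MCM2 at -1.51, the histone acetyltransferase gene HAT1 at -1.17 and CHAF1A, the large subunit of chromatin assembly factor 1, at -1.06. ASF1A, the paralogue of ASF1B, was at 0.35.

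Of 13 genes for histone transcription and histone mRNA processing, ERI1, the exonuclease that trims and degrades stem-loop histone mRNA, was the 1 past 2-fold, with 7.19 in the p53 array and 8.68 in the control array (-1.49), and the list median was -0.35. SLBP had 9.66 with p53 and 10.28 in the control (-0.62). NPAT, the cyclin E-CDK2 substrate that activates histone transcription, had 8.96 with p53 and 9.78 in the control (-0.82). ZNF473, a processing factor of the U7 particle, was at -0.91 and CASP8AP2 (FLASH), needed for transcription and processing, at -0.80. Of 12 listed histone variants outside the clusters, which are made also outside S phase, 9 had a single-symbol probe set. H2AX, the variant phosphorylated at DNA breaks, was the 1 past 2-fold, with 9.61 in the p53 array and 10.76 in the control array (-1.15), and the list median was -0.30. H2AZ1 was at -0.997, just short of 2-fold, H2AZ2 at -0.57, and MACROH2A2 at 0.64. H3-3B, a gene of the replacement histone H3.3, was at -0.23. The differences between these lists and the histone members were not tested, since 1 array per group allows no test. The sets also differ in brightness, as 18 of the 58 members, but no list gene, had a mean below the array median. The members' median was -0.33 over all 58. Over the 40 brighter members, a split that uses the control value, it was -1.06.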

How the data were processed

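Total RNA of H1299 cells with p53 and of a negative control was read on Affymetrix arrays after biotin labelling, per the labels' protocols, with 1 array per group, which limits the precision. The authors deposited a log2 intensity for each probe set, made with RMA, per the submitters' processing notes. That the scale is log2 was judged from the values (1.48 to 14.68 with p53, 1.41 to 14.68 in the control). RMA makes arrays alike in distribution, so a shift in total RNA per cell cannot be read. The sources used here do not give the genome build or how labelling was primed. Priming bears on transcripts without a poly(A) tail, and its effect was not tested.

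GEO's platform annotation gave 1 symbol to 19460 probe sets, several to 1754 and none to 12083 in the table used here. RefSeq promoters matched 52 of the 58 single-symbol members. Members and lists were chosen with earlier results of these data known. The 10 members with the largest absolute difference and the neighbours of the 2-fold limit are given in full, and of related lists up to 4 genes, SLBP and NPAT, with others named after their values were seen. Lower or higher means at least 2-fold, which is a size and not a test, with no filter. Counting was tested on simulated data. Alternatives were 2 brightness filters, centring, a lowess correction (span 0.3), quantile normalization, an offset of 32, limits of 1.5-fold and 3-fold, 1 value per gene in 2 ways, and other handling of equal, several-symbol and, chosen after seeing the data, identical probe sets. Python 3.11.15, pandas 2.3.3 and statsmodels 0.14.6 were used.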

Additional observations from a re-analysis of the deposited data

How the results depend on the processing

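With 1 array per group no replicate could be left out. No paired analysis was possible because the result comes from no test and each group has 1 array. Shifts of a median beyond 0.14, the spread between probe sets of a gene, and changes of a count beyond 1.5 times are given here. No difference of a member that was past 2-fold changed sign under centring, lowess correction, quantile normalization or the offset. With the lowess trend removed H2AC6 and H2AC13 were short of 2-fold. With the offset of 32 these, H2AC4 and H2BC11 were, so that 0 members were higher. At 1.5-fold 3 members were higher, and at 3-fold 12 were lower and 0 higher. The shares over all probe sets were not counted at these 2 limits.

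The medians depend on how dim and equal values are treated. With members kept by the mean of both arrays, at a limit of 7.38, the medians were -1.06 for all members, -0.67 for H1, -1.61 for H3, -1.43 for H4, -1.03 for HIST1 and -0.99 for several-symbol probe sets. With the filter on the higher array they were -1.08, -0.67, -1.61, -1.43, -1.04 and -0.99. Without probe sets equal in both arrays they were -0.83, -0.48, -1.72, -0.83, -0.83 and -0.95, and the transcription and processing list was at -0.50. Leaving out equal values removes zeros by construction. The filters select on values that also set the difference: 6 of the 40 members past the first and 7 of the 41 past the second (H2AC14 added) lay below 7.38 with p53 and passed through the control array alone, and 0 passed through the p53 array alone. With several-symbol probe sets counted in, the median was -0.53 for all members and -1.72 for H3. HIST3 had no member past either filter and so no value there.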

Other observations

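Other genes lie between the histone genes of HIST1, among them the butyrophilin genes, the SLC17 transporter genes and zinc finger genes. Of 22 single-symbol probe sets of such genes, 1 was at least 2-fold lower and 1 at least 2-fold higher, with a median of 0.00 and 6 equal values. The background was 3.65% lower, 5.13% higher and 35.4% equal. The higher one was BTN3A3, a butyrophilin gene, with 8.82 in the p53 array and 6.92 in the control array, 3.73-fold higher. The control value lay below the array median of 7.38. Its neighbour BTN3A1 was at 0.84 and BTN3A2 at 0.10. The lower one was ZNF184, with 7.55 in the p53 array and 8.96 in the control array, 2.65-fold lower. Both were named after their values were seen. In gene order the butyrophilin genes come before H2BC11, together with HMGN4 (-0.45), ABT1 (-0.09) and ZNF322 (-0.80 and -0.71 on 2 probe sets). PRSS16 (-0.09) and ZNF184 come after H2AC12.

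Linker histone genes outside the clusters that serve germ cells, H1-7 and H1-8, were equal between the arrays (7.91 and 7.97), whereas H1-10, a gene of somatic cells, had 8.60 in the p53 array and 9.01 in the control array (-0.42).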
